A study of Mus musculus with 12 samples.

Results

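The genes described are the NOD-like receptors and inflammasome components Nod1, Nod2, Nlrp3, Nlrc5, Pycard, Casp1, Casp4 and Gsdmd, named as a list and followed through every probe set annotated to them alone. Probe sets were present for 7 of the 8 genes, out of 18193 genes with such a probe set, and all 7 were among the 12429 genes tested. Nod2 had no probe set annotated to it and is not analysed here. The arrays came from mouse bone marrow cells of animals aged 6 to 8 weeks that were grown into dendritic cells over 10 days in granulocyte-macrophage colony-stimulating factor (GM-CSF, 20 ng/ml), an agent that all groups share. The cultures received Ro41-5253 (Ro, 100 nmol per ml), an antagonist of retinoic acid receptor alpha, or all-trans-retinoic acid (RA, 10 nmol per ml), the ligand of the retinoic acid receptors, or no retinoid. Each of these was grown with bacterial lipopolysaccharide (LPS, 1 ug/ml) or without it, which gives 6 conditions: Ro with LPS, RA with LPS, LPS alone, Ro, RA, and no addition. The retinoid doses are nmol per ml in the treatment labels, while the design text names no volume. The length of the LPS exposure is not given in the labels. Every condition was grown once from the BALB/c strain and once from the BL6 strain, so 12 arrays hold 6 conditions with 2 arrays each. The labels do not say whether cultures of a strain came from separate animals, so part of the spread between cultures may be technical. With 1 culture per condition and strain, p-values rest on how far differences between conditions vary between the 2 strains. In the comparisons averaged over conditions, that spread also holds any difference of the LPS change between retinoid states.

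NOD1 and NOD2 are cytosolic receptors for fragments of bacterial peptidoglycan and signal through the kinase RIPK2 to NF-kappaB. NLRP3 gathers the adaptor PYCARD (ASC) and caspase-1 into the inflammasome, which cleaves the precursors of IL-1beta and IL-18 and the pore-forming protein gasdermin D. Mouse Casp4 encodes caspase-11, which binds LPS in the cytosol and also cleaves gasdermin D, while NLRC5 is a NOD-like protein known as a transactivator of major histocompatibility complex (MHC) class I genes. In dendritic cells these proteins couple the sensing of microbes to release of IL-1 and to pyroptosis, a lytic death.

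The deposited values were linear probe set signals that had not been brought to a common level. The median signal of an array lay between 21.4 and 41.8, and the trimmed mean between 159 and 263. With LPS the median of all tested genes fell by 0.41 on the log2 scale relative to cultures without it, and with Ro that median was 0.22 higher than without retinoid. Each change below is therefore a log2 difference relative to the median change of all tested genes, with its SE, while its adjusted p (limma with Benjamini-Hochberg adjustment over the 12429 genes) tests the deposited signals and is read against a threshold of 0.05. A signal under 41.8, the highest array median, is called background. Of the dendritic cell markers on the array, 11 of 15 were above background on all 12 arrays and none of the 15 was below it on all of them. The others were Zbtb46 (above it on 11 arrays), Flt3 and Cd209a (6 each) and Xcr1 (2). Of the macrophage and monocyte markers 9 of 13 were above background on all 12 arrays and 0 were below it on all of them. Macrophage markers summed to 5027 (BALB/c) and 10459 (BL6) in the cultures with Ro and LPS, against 39341 to 87128 in the other 10 cultures. Granulocyte markers summed to 544 to 6411 with LPS, against 11602 to 58828 without it. The B cell markers on the array were under background on all arrays for 4 of 7 genes, and T and NK cell markers for 5 of 8. Ighm of the B cell list read 739 to 1634 without LPS and 6.09 to 60.1 with it. Eosinophil, basophil and mast cell markers summed to 657 to 4438 without LPS and to 109 to 824 with it. Their highest sum was in the BL6 culture with Ro alone. In the erythroid and platelet list Pf4 read 804 to 9104. Marker levels on an array do not tell fewer cells of a type from less RNA per cell.

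**Figure D1:**
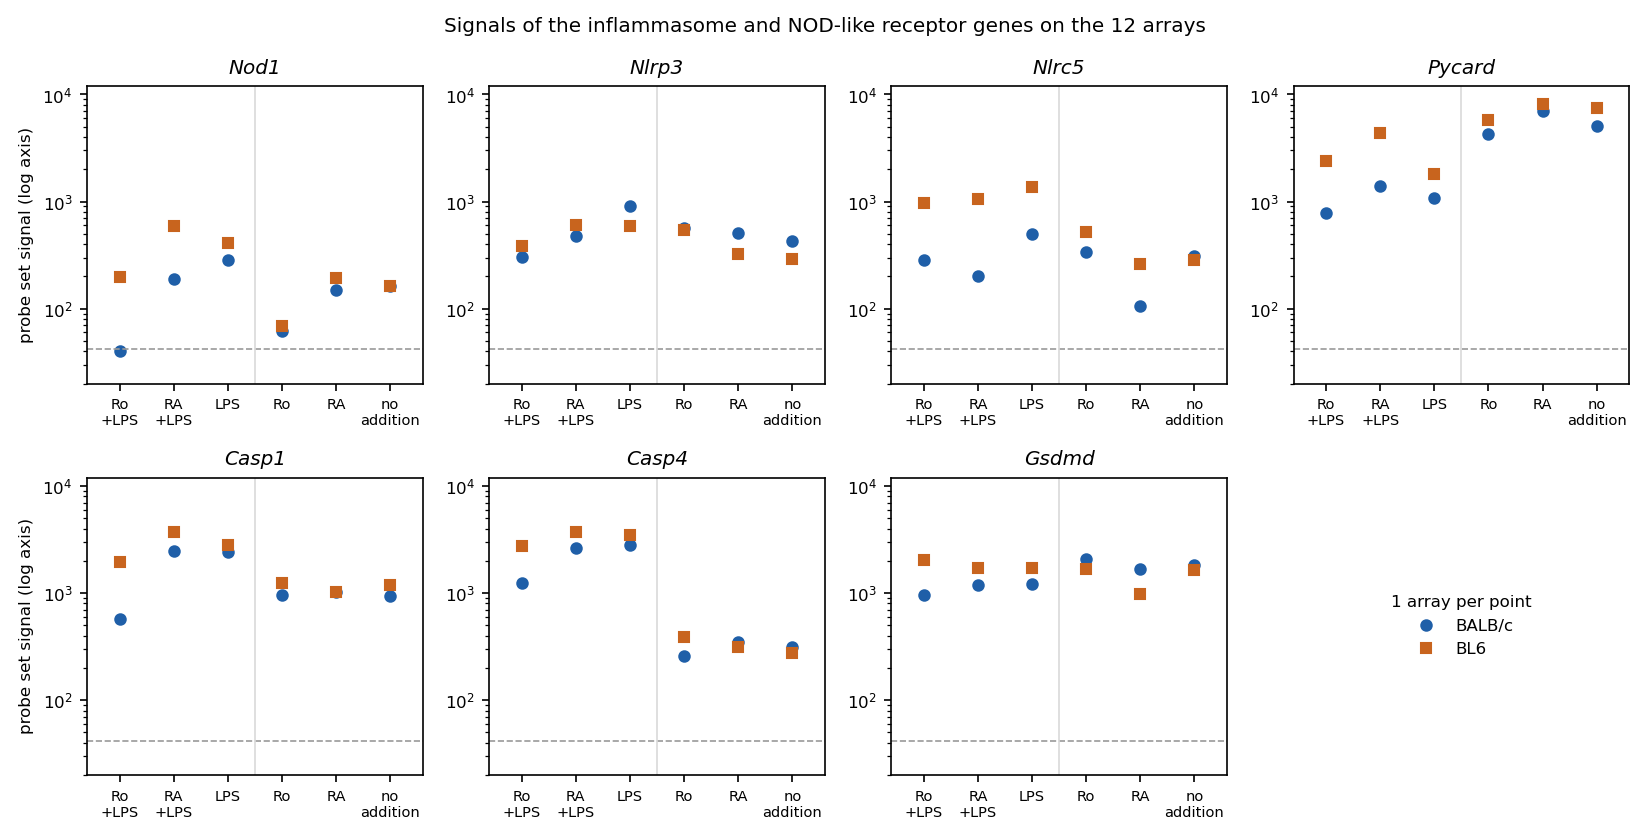
Probe set signal (log axis) of each of the 7 measured genes on the 12 arrays, with conditions along the horizontal axis, LPS cultures left of the grey line, BALB/c as circles and BL6 as squares. The dashed line marks 41.8, the highest array median. Casp4 is the gene whose 6 arrays with LPS all lie above its 6 arrays without LPS, and the lowest Nod1 point, 40.2, is the BALB/c culture with Ro and LPS.

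With LPS, averaged over the retinoid states, Nlrc5, Nod1, Casp1 and Casp4 rose and Pycard fell, while Nlrp3 and Gsdmd did not pass the test. Thus 4 of 7 members were called higher, where 10.9% of all tested genes were, and 1 of 7 lower, where 47.7% were. When the arrays were brought to the same distribution by quantile normalization, 5 of 7 were higher (all genes: 24.4%) and 1 of 7 lower (all genes: 28.7%), because Nlrp3 passed as well. Casp4 was also the only member without overlap between the 6 arrays with LPS and the 6 without, which 2.95% of all genes showed in that direction. The median change of the 7 members was 1.20 on the log2 scale relative to all tested genes.

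Nod1, the peptidoglycan receptor, was measured by 1 probe set, 1454733_at. With LPS it read 40.2 and 199 in Ro cultures (BALB/c first, then BL6, as in all pairs of values below), 188 and 594 in RA cultures, and 285 and 412 without retinoid. Without LPS it read 62.2 and 69.6 with Ro, 150.4 and 192 with RA, and 161 and 163 without retinoid. Within each strain and LPS state the Ro culture was the lowest of the 3 retinoid states, and the groups with and without LPS overlapped only through the Ro and LPS culture of BALB/c, at background, and the RA and LPS culture of BALB/c. Nod1 rose with LPS by 1.20 ± 0.26 (SE, n = 6 arrays against 6, 2.29-fold, limma adjusted p = 0.0189). The call was lost without the BL6 array of the untreated culture (adjusted p = 0.0536), of RA with LPS (0.0503) or of Ro with LPS (0.0511), and without strain in the model (0.0637). The RefSeq promoter window of Nod1 (GRCm38.p6, chr6:54971612-54971911, minus strand, 250 bases before to 50 after a start site, 1 of 2 windows listed for the gene) is shown because Nod1 was the member lower with Ro in the average over LPS states. Capitals mark a match to the interferon-gamma activated site TTCNNNGAA, which begins 193 bases before the start. Of the 32851 mouse windows of that length 8.3% hold one, a share per window and not per gene. The other Nod1 window held no match to this or to the other motifs named below.
Nod1: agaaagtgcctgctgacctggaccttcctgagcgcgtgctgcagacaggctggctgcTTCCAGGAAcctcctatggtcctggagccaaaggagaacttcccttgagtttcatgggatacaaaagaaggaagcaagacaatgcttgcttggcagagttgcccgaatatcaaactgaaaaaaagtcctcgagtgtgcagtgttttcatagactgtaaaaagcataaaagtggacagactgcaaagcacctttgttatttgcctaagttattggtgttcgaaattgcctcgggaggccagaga

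Nlrp3, the sensor that nucleates the inflammasome, read 303 and 382 with Ro and LPS, 481 and 602 with RA and LPS, and 908 and 592 with LPS alone (probe set 1425412_at). In the cultures without LPS it read 569 and 545 with Ro, 505 and 322 with RA, and 427 and 291 without retinoid. The Ro cultures were the 2 highest of the 6 without LPS and the 2 lowest of the 6 with LPS. Its averaged change with LPS was 0.66 ± 0.26 (SE, n = 6 against 6) and did not pass (limma adjusted p = 0.439). After quantile normalization the same comparison gave 0.71 ± 0.24 and limma adjusted p = 0.0283.

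Nlrc5, the class I transactivator, read 287 and 979.8 with Ro and LPS, 202 and 1057 with RA and LPS, and 496 and 1362 with LPS alone (probe set 1437176_at). The cultures without LPS read 341 and 517 with Ro, 107 and 261 with RA, and 313 and 284 without retinoid. Every BL6 culture with LPS was above every other culture, and the BALB/c cultures with LPS lay within the range of those without. Nlrc5 rose with LPS by 1.46 ± 0.29 (SE, 2.74-fold, n = 6 against 6, limma adjusted p = 0.00809), a call lost when strain was left out of the model (adjusted p = 0.0619).

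Pycard, the adaptor that links sensors to caspase-1, was the member that fell with LPS. Its probe set 1417346_at read 782 and 2391 with Ro and LPS, 1400.5 and 4331 with RA and LPS, and 1087 and 1792 with LPS alone. Cultures without LPS gave 4250.0 and 5734 with Ro, 6973 and 8083 with RA, and 5037 and 7528 without retinoid. Only the BL6 culture with RA and LPS reached into the range without LPS, above the BALB/c culture with Ro. Pycard fell by 1.45 ± 0.19 on the log2 scale (SE, n = 6 against 6, 2.73-fold lower, limma adjusted p = 7.59e-06). The other Pycard probe sets stayed near background, 1417347_at at 89.2 or less and 1446926_at at 73.9 or less on all 12 arrays. The granulocyte marker sum given above was also lower with LPS, and 10 of the 11 tested markers of that list fell and 1 rose. Macrophage markers summed to a median of 40626 with LPS, against 63904 without it, and 9 of the 13 tested fell and 1 rose. Of the 15 tested dendritic cell markers 6 fell and 4 rose. Among all genes 47.7% were called lower and 10.9% higher with LPS. The part of these cells in the lower Pycard signal was not tested. The promoter window of Pycard (chr7:127993818-127994117, minus strand) is shown as that of the member with the opposite direction, and it held no match to the NF-kappaB letters (GGGA, any base, TTCCC), the interferon response core (GAAA, any 2 bases, GAAA) or TTCNNNGAA on either strand.
Pycard: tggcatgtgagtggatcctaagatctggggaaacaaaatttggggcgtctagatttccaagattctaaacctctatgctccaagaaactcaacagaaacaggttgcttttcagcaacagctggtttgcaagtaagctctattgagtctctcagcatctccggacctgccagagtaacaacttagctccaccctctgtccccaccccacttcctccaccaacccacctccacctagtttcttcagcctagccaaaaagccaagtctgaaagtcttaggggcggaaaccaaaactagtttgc

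Both inflammatory caspases rose with LPS. Casp1, whose product cleaves IL-1beta and IL-18, read 572 and 1964 with Ro and LPS, 2486 and 3745 with RA and LPS, and 2444 and 2785 with LPS alone (probe set 1449265_at). Without LPS it read 966 and 1246 with Ro, 1023 and 1029 with RA, and 931 and 1181 without retinoid. The BALB/c culture with Ro and LPS was the lowest of all 12, and the other 5 cultures with LPS were above every culture without it. Casp1 rose by 1.35 ± 0.28 (SE, 2.54-fold, n = 6 against 6, limma adjusted p = 0.0113).

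Casp4, the gene of the cytosolic LPS receptor caspase-11, read 1248 and 2752 with Ro and LPS, 2662 and 3749.8 with RA and LPS, and 2811 and 3464 with LPS alone (probe set 1449591_at). The readings without LPS were 259 and 388 with Ro, 353 and 314 with RA, and 316 and 273 without retinoid. The lowest culture with LPS, at 1248, lay above the highest without it, at 388. Casp4 rose by 3.41 ± 0.20 (SE, 10.7-fold, n = 6 against 6, limma adjusted p = 4.02e-07), and the call held at every setting tried. The genes for these 2 caspases are neighbours on chromosome 9, with 0 annotated genes between them in RefSeq, and their promoter windows (GRCm38.p6, plus strand) are shown because both genes rose. The window of Casp4 (chr9:5308599-5308898) held 1 match to the NF-kappaB letters, in capitals, beginning 92 bases before the start, and 0.359% of all windows hold one. The window of Casp1 (chr9:5298267-5298566) held no match to any of the 3 motifs.
Casp1: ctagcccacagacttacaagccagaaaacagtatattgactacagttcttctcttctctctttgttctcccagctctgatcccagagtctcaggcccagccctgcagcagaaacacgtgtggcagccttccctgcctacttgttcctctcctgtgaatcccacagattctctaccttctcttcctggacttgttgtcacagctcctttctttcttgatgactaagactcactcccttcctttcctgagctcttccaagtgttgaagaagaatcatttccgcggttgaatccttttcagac
Casp4: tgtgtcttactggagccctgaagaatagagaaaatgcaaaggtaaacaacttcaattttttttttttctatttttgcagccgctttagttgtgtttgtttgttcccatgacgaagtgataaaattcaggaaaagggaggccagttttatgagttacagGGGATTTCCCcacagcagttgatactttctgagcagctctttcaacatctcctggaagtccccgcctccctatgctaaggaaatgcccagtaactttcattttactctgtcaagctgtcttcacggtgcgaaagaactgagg

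The motif letters were chosen after the sequences had been seen, a match is a description of letters, and the share of all windows with the interferon response core was 3.44%. RefSeq windows were found for 6 of the 8 genes, 9 windows in all, and not for Nlrc5 and Gsdmd.

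Gsdmd, the pore-forming substrate of these caspases, read 968 and 2021 with Ro and LPS, 1178 and 1731 with RA and LPS, and 1221 and 1722 with LPS alone (probe set 1428767_at). Without LPS it read 2098 and 1660.0 with Ro, 1684 and 977 with RA, and 1812 and 1639 without retinoid. The groups overlapped over nearly their whole range, and the change with LPS of 0.24 ± 0.21 did not pass (SE, n = 6 against 6, limma adjusted p = 0.52).

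Set out by retinoid state, LPS raised Casp4 in Ro cultures, raised Nlrc5, Casp1 and Casp4 in RA cultures, and raised Nlrp3, Nlrc5, Casp1 and Casp4 without retinoid, and Pycard fell in each state. In Ro cultures 1 of 7 was higher, where 5.95% of all genes were, and 1 of 7 lower, where 23.9% were. Casp4 rose by 2.83 ± 0.30 there (SE from the limma fit over all 12 arrays, 2 arrays against 2, 7.12-fold, adjusted p = 0.000238). Pycard fell by 1.49 ± 0.32 on the log2 scale (limma adjusted p = 0.00192). Casp1 gave 0.30 ± 0.35 (adjusted p = 0.943), Nod1 0.77 ± 0.45 (0.52) and Nlrp3 -0.34 ± 0.30 (0.111), none past the limma threshold. Without the BL6 culture with Ro and LPS, which left 1 array in that condition, Casp1 gave -0.25 ± 0.25, an SE as large as the change. In RA cultures 3 of 7 were higher, where 6.48% of all genes were, and 1 lower, where 28.5% were. Casp1 rose by 1.96 ± 0.35 (3.88-fold) and Casp4 by 3.59 ± 0.30 in RA cultures (limma adjusted p = 6.4e-05), and Nlrc5 by 1.79 ± 0.46 (3.46-fold). After quantile normalization 5 of 7 were higher in RA cultures (all genes: 12.6%) and 1 lower (all genes: 16.7%), with Nod1 (adjusted p = 0.017) and Nlrp3 (0.014) past the limma threshold as well.

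Without retinoid 4 of 7 were higher with LPS, where 7.98% of all genes were, and 1 lower, where 37.5% were. Nlrp3 rose by 1.55 ± 0.30 (2.92-fold, limma adjusted p = 0.0174) and Nlrc5 by 1.94 ± 0.46 (3.84-fold, 0.0279). Casp1 rose by 1.83 ± 0.35 (3.54-fold, 0.0108) and Casp4 by 3.86 ± 0.30 (14.5-fold, 3.76e-05). All 4 compared 2 arrays against 2 in the limma fit. Nod1 gave 1.54 ± 0.45 and missed the threshold (limma adjusted p = 0.0893). Both of its arrays with LPS were above both without, and the share of all genes with that order was not counted. Nod1 passed after quantile normalization (1.68, adjusted p = 0.00579), after median scaling (1.60, 0.00432) and in a fit on the 4 arrays alone (0.02). The difference between the LPS change in Ro cultures and without retinoid was itself tested. Among the members 0 of 7 passed (all genes: 0.257% higher and 0.41% lower). An unadjusted p under 0.05 was found for 2 of 7 (all genes: 1908 of 12429). That difference was -1.85 ± 0.43 for Nlrp3 (limma adjusted p = 0.0925) and -1.49 ± 0.49 for Casp1 (0.23). For Nlrp3 it passed after quantile normalization (-1.78, adjusted p = 0.0278) and after scaling the arrays to a common median (-1.89, 0.0175). For Casp1 it passed without the BL6 culture with Ro and LPS (-2.05, adjusted p = 0.0341). The corresponding difference for RA cultures passed for 0 of 7 members (all genes: 0% in either direction). None of the members had an unadjusted p under 0.05 (all genes: 701 of 12429). For Nlrp3 the difference was -0.74 ± 0.43.

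Of the 5 calls made without retinoid, the 2 for Pycard and Casp4 were left when the BALB/c culture with LPS alone or the untreated BL6 culture was taken out. Without that BL6 culture the change of Nlrc5 was 1.25 (limma adjusted p = 0.313), and its call was also lost without the BL6 culture with LPS alone (0.148) and without strain in the model (0.194). Of the 4 calls in RA cultures, 2 were left without the BALB/c or without the BL6 culture with RA alone, and without strain in the model.

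**Figure D2:**
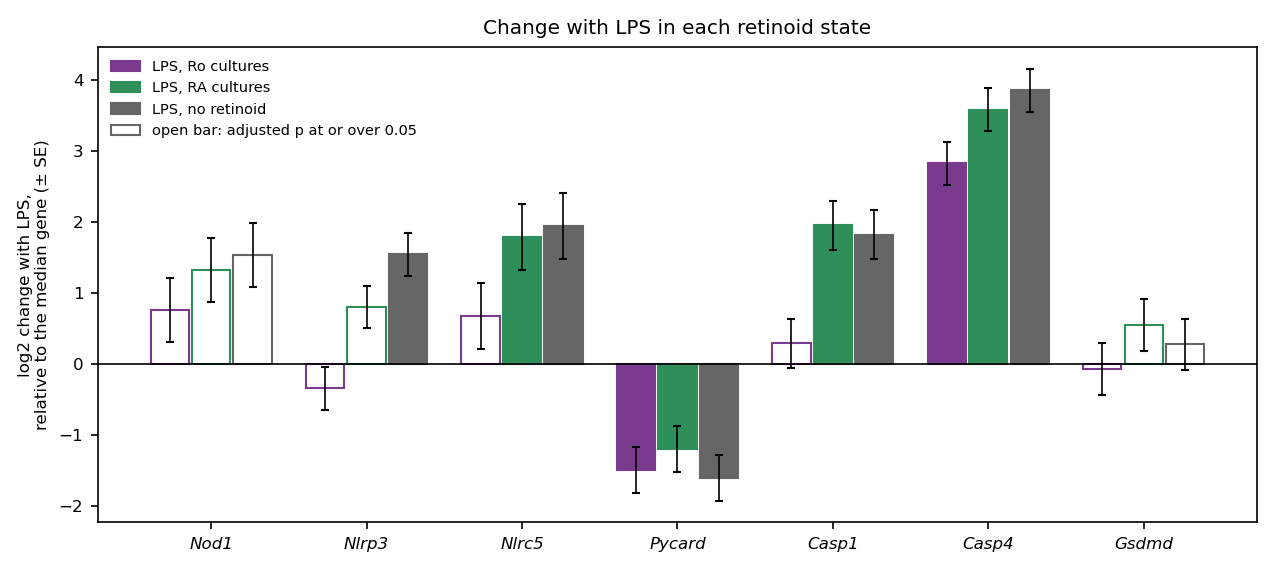
Log2 change with LPS relative to the median gene for the 7 genes in Ro cultures, RA cultures and cultures without retinoid (2 arrays against 2 each, error bars SE of the limma fit). Filled bars passed an adjusted p of 0.05. Casp4 and Pycard are filled in all 3 states, and the Nlrp3 bar in Ro cultures (-0.34) points down where that without retinoid is 1.55.

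Ro lowered Nod1 in the average over LPS states, and among cultures with LPS it lowered Nod1, Nlrp3 and Casp1. In the average, 1 of 7 members was lower (all genes: 4.35%) and 0 higher (all genes: 14%). Nod1 fell by 1.64 ± 0.31 on the log2 scale (SE, n = 4 arrays against 4, 3.12-fold lower, limma adjusted p = 0.0123). Its 4 readings ran between 40.2 and 199 with Ro and between 161 and 412 without retinoid, so that the groups overlapped by the BL6 culture with Ro and LPS alone. Without the BALB/c culture with LPS alone the adjusted p was 0.0507 for Nod1, and without strain in the model it was 0.0521.

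With LPS present, 3 of 7 were lower with Ro (all genes: 5.54%) and 0 higher (all genes: 16%). Nod1 fell by 1.99 ± 0.45 (3.98-fold lower, limma adjusted p = 0.0227), Casp1 by 1.57 ± 0.35 (2.96-fold lower, 0.0245) and Nlrp3 by 1.36 ± 0.30 (2.56-fold lower, 0.0285), on the log2 scale with 2 arrays against 2. For these 3 genes, and also for Casp4, both cultures with Ro and LPS were below both with LPS alone. The share of all genes with such an order was not counted for any comparison of 2 arrays against 2. Casp4 gave -1.03 ± 0.30 (limma adjusted p = 0.103) and passed after quantile normalization (-0.84, adjusted p = 0.031). Taking out 1 of 3 arrays ended all 3 calls, those of BALB/c with Ro and LPS, BALB/c with LPS alone and BL6 with LPS alone. Without the BALB/c culture with Ro and LPS the changes were -1.47 for Nod1 (limma adjusted p = 0.168), -1.23 for Nlrp3 (0.169) and -1.02 for Casp1 (0.153). Macrophage markers summed to 5027 and 10459 in the 2 cultures with Ro and LPS, against 39341 and 41911 with LPS alone. Of the 13 tested markers of that list 7 fell with Ro in the average (all genes: 4.35%) and 0 rose (all genes: 14%). Their part in the lower signals was not tested.

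Without LPS, 0 of 7 members passed for Ro (all genes: 1.45% higher and 1.18% lower). An unadjusted p under 0.05 was found for 1 of 7 (all genes: 2172 of 12429). That gene was Nod1, at -1.28 ± 0.45 (limma adjusted p = 0.225), and a fit on the 4 arrays alone gave adjusted p = 0.0414. Nlrp3 gave 0.47 ± 0.30 in the same comparison (adjusted p = 0.305), with both Ro cultures above both untreated cultures.

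**Figure D3:**
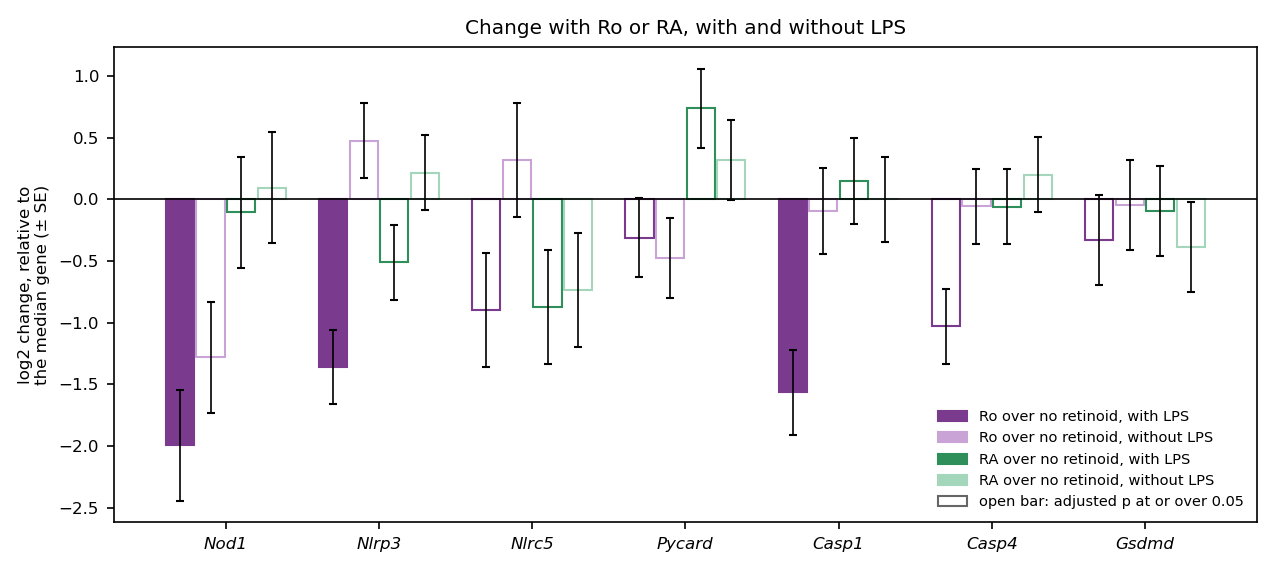
Log2 change with Ro or RA against no retinoid, relative to the median gene, with LPS (dark) and without LPS (light), 2 arrays against 2 each with SE. Filled bars passed an adjusted p of 0.05: they are the Ro bars with LPS of Nod1 (-1.99), Nlrp3 (-1.36) and Casp1 (-1.57).

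RA against no retinoid gave 0 calls among the 7 members, as it did among all tested genes (0% higher and 0% lower). Of the members, 2 had an unadjusted p under 0.05 in limma (all genes: 1026 of 12429). These were Nlrc5, at -0.80 ± 0.36 (adjusted p = 0.605), and Pycard, at 0.53 ± 0.23 (n = 4 against 4), whose limma adjusted p after quantile normalization was 0.452. Nlrc5 averaged 407 in RA cultures and 614 without retinoid, and Pycard averaged 5197 in RA cultures and 3861 without retinoid. Within cultures with LPS 0 of 7 passed (all genes: 0% in either direction). There 1 member had an unadjusted p under 0.05 (all genes: 1139 of 12429). Within those without LPS 0 of 7 passed (all genes: 0.0322% higher and 0.0965% lower). In that comparison 0 members had an unadjusted p under 0.05 (all genes: 914 of 12429). After quantile normalization 0 members passed in any of these 3 comparisons, where the calls among all genes were 0.0322% lower in the average, 0.0805% higher and 0.145% lower without LPS, and 0% with LPS.

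RA and Ro were also set against each other, at 10 and 100 nmol per ml by the treatment labels, so that agent and dose differ together. Nod1 and Pycard were higher with RA than with Ro, 2 of 7 members, where 5.36% of all genes were higher and 14.4% lower. Nod1 differed by 1.64 ± 0.31 (3.12-fold, n = 4 against 4, limma adjusted p = 0.0083) and Pycard by 0.93 ± 0.23 (1.91-fold, 0.0462). The Pycard call was lost in 9 of 12 fits that left out 1 array (adjusted p up to 0.127), without strain in the model (0.235) and with its 3 probe sets averaged (0.186). Nod1 in cultures with RA read 150.4 to 594, against 40.2 to 199 in those with Ro, and within each LPS state and strain the RA culture was above the Ro culture. The comparison shares its Ro arrays with the one of Ro against no retinoid.

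BALB/c cultures had less Nlrc5 and Pycard signal than BL6 cultures. In the average over conditions 2 of 7 members were lower in BALB/c (all genes: 3.81%) and 0 higher (all genes: 11.4%). Nlrc5 differed by -1.32 ± 0.29 (n = 6 against 6, 2.49-fold lower, limma adjusted p = 0.0189) and Pycard by -1.0 ± 0.19 (0.0113). Nlrc5 ran between 107 and 496 in BALB/c, with a median of 300.02, and between 261 and 1362 in BL6, with a median of 748. Pycard ran between 782 and 6973 in BALB/c (median 2825) and between 1792 and 8083 in BL6 (median 5032). Relative to the median gene, both were lower in BALB/c in 6 of 6 conditions, as were Nod1, Casp1 and Casp4. On the deposited scale this held in 6 conditions for Nod1, Pycard and Casp1, in 5 for Nlrc5 and in 4 for Casp4. The share of all genes lower in 6 of 6 conditions was not counted. Strain differences correlated between conditions (r 0.30 to 0.70), so the 6 conditions do not count as separate results. Quantile normalization gave 4 lower members (all genes: 8.09%) with 0 higher (all genes: 7.18%), adding Nod1 (-0.91, adjusted p = 0.0145) and Casp4 (-0.51, 0.0403). Without the BALB/c culture with RA alone the Nlrc5 call was lost (adjusted p = 0.05).

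The strain differences of Nlrc5 were -1.57, -2.28 and -1.65 in cultures with Ro and LPS, RA and LPS, and LPS alone, and -0.71, -1.54 and -0.19 with Ro, RA and no addition. Whether the LPS change differed between strains was tested, and 0 of 7 members passed (all genes: 0.00805% higher and 0.113% lower). An unadjusted p under 0.05 was found for 4 of 7 (all genes: 1412 of 12429). For Nlrc5 the difference in LPS change, BALB/c minus BL6, was -1.03 ± 0.47 (limma adjusted p = 0.366), and for Gsdmd it was -0.87 ± 0.28 (0.221). The strain is also the replicate number in the labels, so a batch that followed that number cannot be told apart from strain.

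**Figure D4:**
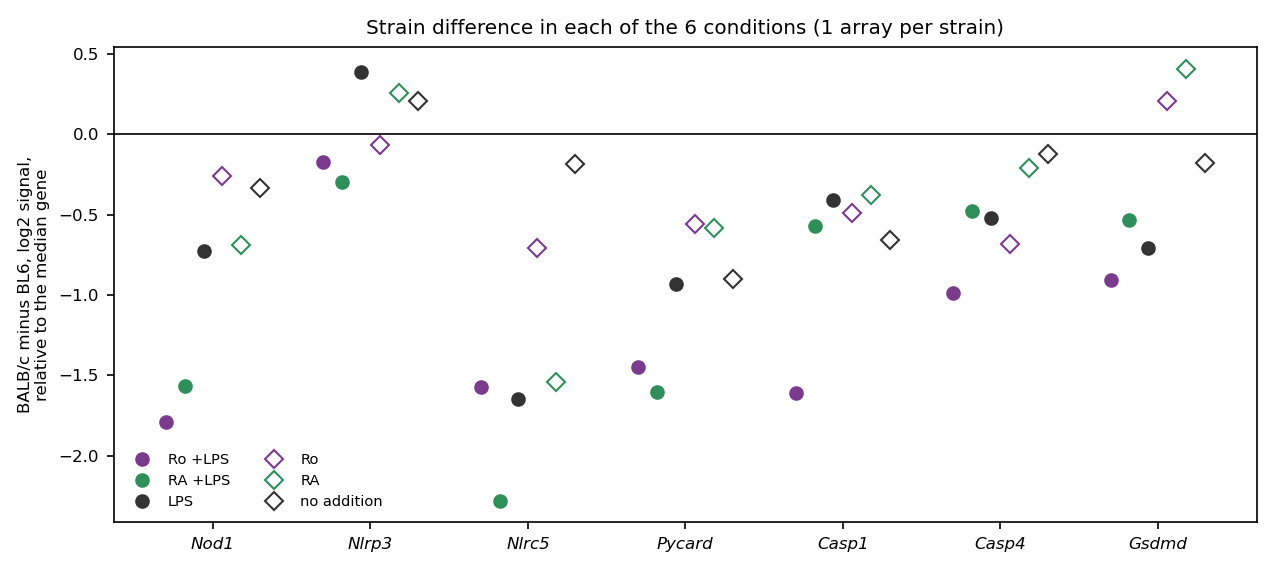
BALB/c minus BL6 difference of log2 signal in each of the 6 conditions, relative to the median gene (1 array per strain and condition, no error), with filled circles for cultures with LPS and open diamonds for those without. All 6 points of Nod1, Nlrc5, Pycard, Casp1 and Casp4 lie under 0, and the lowest is Nlrc5 with RA and LPS (-2.28).

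Ordered by mean signal, Nod1 was highest with RA and LPS (391 ± 287, SD, n = 2) and LPS alone (349 ± 89.9), and lowest in Ro cultures (65.9 ± 5.25). Casp1 and Casp4 had the same 3 conditions on top, RA and LPS (3116 ± 890.2 and 3206 ± 769, SD, n = 2), LPS alone (2614 ± 241 and 3137 ± 462) and Ro with LPS (1268 ± 984 and 1999.9 ± 1064). For both caspases the arrays of the first 2 conditions overlapped, and those of LPS alone lay apart from Ro with LPS. Nlrp3 with LPS alone (750.0 ± 223) lay apart from the next condition, Ro without LPS (557 ± 17.0), and the 4 neighbouring pairs below overlapped. For Pycard and Gsdmd the arrays of every neighbouring pair of conditions overlapped.

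Over the 12 arrays the genes whose log2 signals ran most like each member were taken as the 2 with the highest Pearson r among all tested genes, as a description in which the arrays share conditions and scaling. They were Ifi207 (r = 0.96) and Slamf6 (0.96) for Nod1, Mtf2 (0.92) and Mboat2 (0.90) for Nlrp3, and Ly9 (0.90) and Dop1b (0.89) for Nlrc5. Pycard ran most like Ndufa5 (0.99), a subunit of mitochondrial complex I, and Nqo2 (0.98). Casp4 ran most like Ptgs2 (0.99), the inducible cyclooxygenase, and Dnajc1 (0.99), Casp1 most like Osbpl3 (0.94) and Idnk (0.93), and Gsdmd most like Ino80d (0.88) and AU015836 (0.86). Among the members, Nod1 and Casp1 ran most alike (0.85), followed by Casp1 and Casp4 (0.77), and Pycard ran opposite to Casp4 (-0.72).

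Genes that act with the members were followed in 6 fixed lists. Each count of calls below is on the deposited scale, on which LPS lowered the median gene, unless another is named. The counts with LPS stand against 10.9% of all genes higher and 47.7% lower on that scale, and 24.4% and 28.7% after quantile normalization. Those with Ro stand against 14% of all genes higher and 4.35% lower. Of 9 tested genes among other NOD-like receptors and sensors (19 listed), 1 rose and 3 fell with LPS, and 2 and 2 after quantile normalization, around a median of 0.00 relative to all tested genes. Mefv, the gene of the sensor pyrin, rose by 1.41 ± 0.35, and Nlrx1, a mitochondrial NOD-like protein, fell by 0.78 ± 0.22. Nlrp10 was also called lower, but it averaged 5.77 with LPS and 30.9 without it, both under background. Ciita, the class II transactivator, fell by 0.58 ± 0.24, a call lost after quantile normalization (adjusted p = 0.0631).

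With Ro 1 of these 9 rose (all genes: 14%) and 3 fell (all genes: 4.35%). Ciita averaged 1561 with Ro and 549 without retinoid and rose by 1.20 ± 0.29 (limma adjusted p = 0.00871), and it also stands among the dendritic cell markers. Naip6, Naip2 and Naip5, whose products recognise bacterial flagellin or secretion system proteins for the NLRC4 inflammasome, fell by 1.38 ± 0.32, 1.33 ± 0.25 and 1.25 ± 0.21 (adjusted p = 0.0304, 0.0137 and 0.00971). Naip5 read 152 and 300.5 with Ro and LPS, against 468 and 482 with LPS alone, and 346 and 314 with Ro, against 739 and 579.7 without addition. For each of the 3 genes all Ro arrays were below all arrays without retinoid, an order that 2.13% of all genes showed. They are close copies of each other, and probe sets may read more than 1 of them.

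Of 22 tested genes of NOD1 and NOD2 signalling and peptide transport (26 listed), 8 rose (all genes: 10.9%) and 7 fell (all genes: 47.7%) with LPS, and 10 and 3 after quantile normalization (all genes: 24.4% and 28.7%). Tnfaip3, a deubiquitinase that restrains NF-kappaB, rose by 3.34 ± 0.23 (10.2-fold), Traf6, a ubiquitin ligase of that pathway, by 2.16 ± 0.33, and the interferon-inducible GTPase Irgm1 by 2.16 ± 0.34. Erbin, whose product binds NOD2, and Sharpin, a subunit of the linear ubiquitin ligase, fell by 0.55 ± 0.18 and 0.53 ± 0.18. Tab1 fell by 0.45 ± 0.15, a call lost after quantile normalization (adjusted p = 0.131). With Ro, Birc2 and Rbck1, which encode ubiquitin ligases, rose by 0.53 ± 0.20 and 0.34 ± 0.18, and neither passed after quantile normalization (adjusted p = 0.114 and 0.189). Without the BALB/c culture with Ro and LPS, 1 gene of this list passed for Ro.

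Of 18 tested genes of inflammasome licensing, substrates and output (20 listed), 6 rose and 6 fell with LPS, and 8 and 6 after quantile normalization. Il1a, which encodes a membrane and nuclear form of IL-1, rose by 6.20 ± 0.28 (73.4-fold, limma adjusted p = 6.04e-08), and Il1b by 5.47 ± 0.32 (44.3-fold, 3.35e-07). Il1b read 9057 and 10499.8 with Ro and LPS, 11856 and 12358 with RA and LPS, and 12954 and 12325 with LPS alone, against 128 to 1032 in the 6 cultures without LPS. The receptor antagonist gene Il1rn rose by 2.88 ± 0.29. Txnip, whose product binds thioredoxin and NLRP3, fell by 2.15 ± 0.42, and P2rx7, the gene of the ATP-gated channel that activates NLRP3, by 1.61 ± 0.33. Gsdme averaged 31.7 with LPS, under background, and 195 without it.

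With Ro, Kcnk6, which encodes a potassium channel, rose by 1.27 ± 0.33. P2rx7, Il1a and Ninj1, the gene of a protein that ruptures the membrane of dying cells, fell by 2.45 ± 0.40 (5.48-fold lower, limma adjusted p = 0.00486), 1.80 ± 0.34 (0.0118) and 0.91 ± 0.15 (0.0123). P2rx7 read 8.94 and 58.3 with Ro and LPS, against 188 and 98.2 with LPS alone, and 50.8 and 161 with Ro, against 611 and 709 without addition. In each LPS state both Ro cultures were below both cultures without retinoid.

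Of 15 tested genes of cytosolic LPS sensing (19 listed), which hold the guanylate-binding proteins that help present LPS to caspase-11, 11 rose and 2 fell with LPS, and 12 and 0 after quantile normalization. Irf7, an interferon-inducible transcription factor, rose by 4.82 ± 0.30 (28.2-fold), Iigp1 by 3.70 ± 0.45 (13.0-fold) and Gbp2 by 2.84 ± 0.17 (7.17-fold). Tlr4, the surface receptor of LPS, and Irf3 fell by 0.32 ± 0.22 and 0.29 ± 0.17, and neither passed after quantile normalization (adjusted p = 0.452 and 0.0554). With Ro 4 genes fell and 0 rose, and 1 fell when the BALB/c culture with Ro and LPS was left out. Iigp1 fell by 2.07 ± 0.55, Gbp6 by 1.89 ± 0.45 and Cd14, a coreceptor of LPS, by 1.22 ± 0.18 (limma adjusted p = 0.0381, 0.0276 and 0.0057).

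Of 8 tested inflammasome inhibitors (12 listed), 5 rose and 2 fell with LPS, the same counts as after quantile normalization. Nos2, the inducible nitric oxide synthase, averaged 641 with LPS, against 2.14 without it, which is under background. Serpinb9, a serine protease inhibitor, rose by 1.61 ± 0.22 and Trim30a by 1.57 ± 0.18, while Cd24a fell by 1.24 ± 0.23 and Gpsm3 by 0.61 ± 0.14. With Ro, Serpinb9 rose by 1.26 ± 0.28 and Cd24a by 0.76 ± 0.28, and Nos2 fell by 1.55 ± 0.42. Nos2 read 159 and 189 with Ro and LPS, 1439 and 705 with LPS alone, and at most 4.88 in any culture without LPS. After quantile normalization the limma adjusted p was 0.00792 for Serpinb9, 0.054 for Cd24a and 0.0552 for Nos2. Of these 3 calls 1 was left after quantile normalization, and 1 without the BALB/c culture with Ro and LPS.

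Of 9 tested genes of MHC class I presentation that NLRC5 is known to control (12 listed), 5 rose and 0 fell with LPS, and 7 and 0 after quantile normalization. Tap1, a peptide transporter subunit, rose by 1.91 ± 0.19 (3.76-fold), the immunoproteasome subunit gene Psmb9 by 1.37 ± 0.11 (2.58-fold) and Tapbp, the gene of tapasin, by 1.26 ± 0.16 (2.40-fold). With Ro, Psmb9 and Psmb8 rose by 0.32 ± 0.13 and 0.23 ± 0.13. In the average over LPS states RA gave 0 calls in the 6 lists on the deposited scale, as among all tested genes. Each list held 1 to 3 genes with an unadjusted limma p under 0.05, as did 1026 of all 12429 genes. In that average Serpinb9 gave -1.08 ± 0.28 with RA (limma adjusted p = 0.223) and Ciita -0.90 ± 0.29 (0.461). Without LPS and after quantile normalization, 2 genes of NOD1 and NOD2 signalling and peptide transport were lower with RA (all genes: 0.145%).

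**Figure D5:**
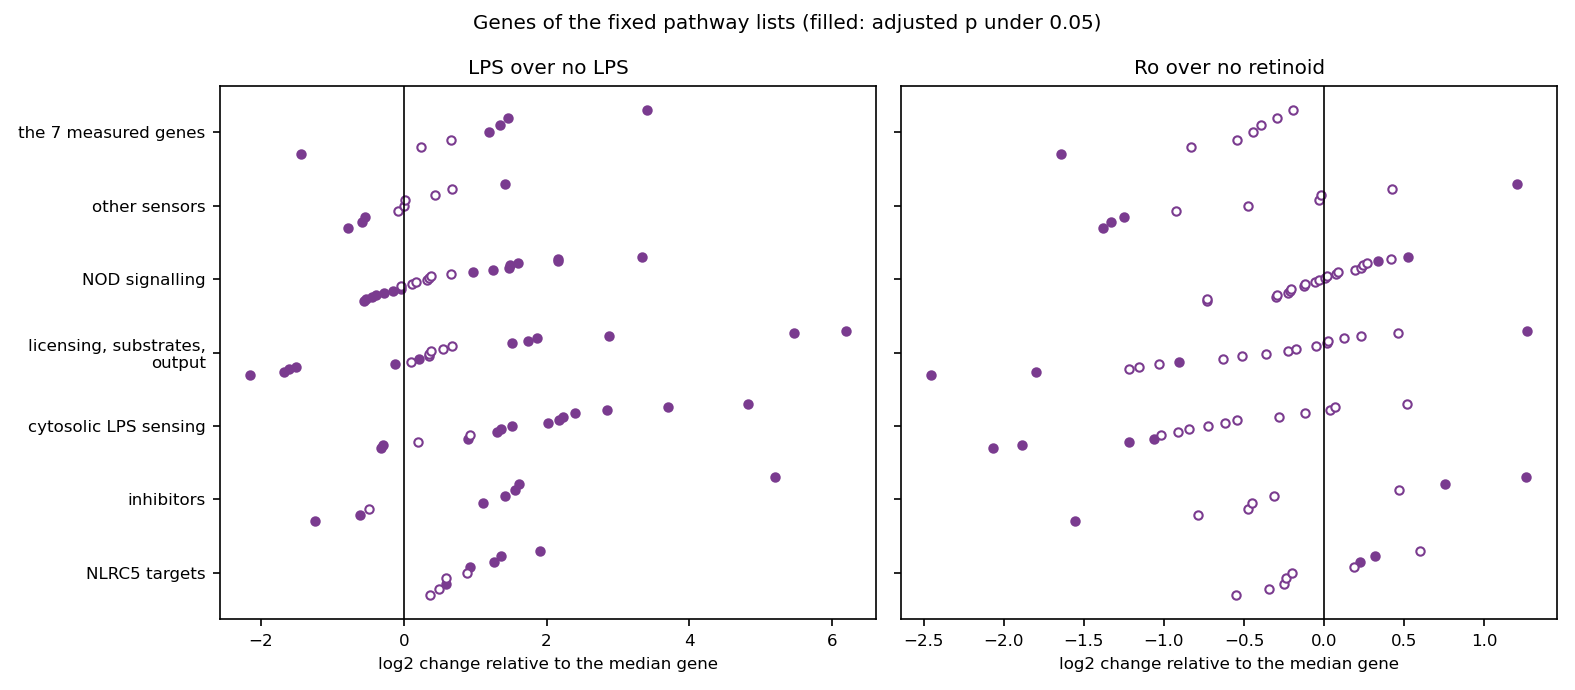
Log2 change relative to the median gene with LPS (left) and with Ro (right) for the 7 measured genes and the tested genes of the 6 lists, 1 point per gene, filled where the adjusted p on the deposited scale was under 0.05. Some filled points near 0 on the left are genes that, like the median gene, had lower deposited signals with LPS. The cytosolic LPS sensing genes lie mostly right of 0 with LPS, up to 4.82 (Irf7).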

How the data were processed

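The samples were 12 arrays of the authors, each of RNA from 1 culture, with biotin-labelled cRNA. The deposited table holds 1 linear intensity per probe set (45101) and array, made by the authors with MAS5, per the submitters' processing notes; its version and scaling are not given in the sources used here. The number of arrays limits the precision. Genes were named from the platform's annotation: 34945 probe sets had 1 gene, 932 had several and were left out. A probe set was kept if it exceeded its array's median on at least 2 arrays, the gene's kept probe set of highest mean was used, and log2(intensity + 16) was fitted with limma 3.58.1 in R 4.3.3 (intensity trend, Benjamini-Hochberg, threshold 0.05). The average effects of LPS, RA, Ro and strain came from an additive model. Comparisons of 2 arrays against 2 and retinoid by LPS terms used a second model with 1 mean per condition and a strain term. Strain is the replicate number of the labels and entered as a block. Strain differences correlated between conditions (15 pairs, r 0.30 to 0.70). As each number is 1 strain, this does not tell whether cultures of a number shared an animal or a batch. The fit was tested on simulated data.

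The genes and lists were chosen with earlier results of these data known. All listed genes were named, and from each list up to 3 genes past the threshold per direction in the averaged comparisons, or up to 2 by smallest p. No fold is given where a group's mean signal was under the highest array median. Alternatives were scaling, added constant, filter, probe set choice, trend, block and leaving out arrays. Promoters came from RefSeq (GRCm38.p6). Figures were drawn with matplotlib 3.10.9.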

Additional observations from a re-analysis of the deposited data

Results flagged for a closer look

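In 49 checks of single arrays (7 genes in 7 sets of arrays), 4 checks found a reading far from the rest of its set, 3 different readings in all, and chance alone marks about 1 set in 20. The BALB/c culture with Ro and LPS had the lowest Casp1 signal of the cultures with LPS, 572, with the next at 1964. The same culture had the lowest Casp4 signal of the cultures with LPS, 1248, with the next at 2662. The BL6 culture with RA alone had the lowest Gsdmd signal of the cultures without LPS, 977, with the next at 1639, and the same reading was also the lowest of the 6 BL6 cultures. The change of Nlrp3 with LPS was -0.34 in Ro cultures, below 0 in both strains, against 1.55 without retinoid, above 0 in both strains. The test of that difference gave limma adjusted p = 0.0925 on the deposited scale, and 0.0278 after quantile normalization.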

How the results depend on the processing

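Among single-gene results under the alternatives, 2094 kept direction and side of the threshold, 52 lost a call, 24 gained one, 69 changed sign with no call at either setting, and 1 call had the opposite direction. That 1 was Casp1 with LPS in Ro cultures, at -0.25 ± 0.25 (SE) relative to the median gene without the BL6 culture with Ro and LPS. It was the lowest of its values with 1 array left out, which reached 0.86. The fit had 1 array left in that condition, and calls test the deposited signals. On that scale Casp1 changed by -0.74 with LPS in the BALB/c Ro cultures, much of it shared with the median gene. Without the replicate block, which is strain, the count of called genes was 3 for LPS, 3 for LPS without retinoid, 2 for LPS in RA cultures, 0 for Ro, 0 for Ro with LPS and 1 for RA against Ro. Quantile normalization gave 4 for strain and 1 for the interaction of Ro and LPS, and median scaling gave 1 for that interaction. A fit on the 4 arrays compared gave 1 for Ro without LPS. For RA against Ro the count was 1 with no filter, with probe sets averaged and with no intensity trend. Leaving out each array gave 4 to 5 called genes for LPS, 2 to 6 for LPS without retinoid, 2 to 4 for LPS in RA cultures, 2 to 3 for LPS in Ro cultures, 0 to 1 for Ro, 0 to 4 for Ro with LPS, 1 to 2 between RA and Ro, 1 to 3 between strains and 0 to 1 for the interaction of Ro and LPS. Where that left 1 array in a condition, it was assumed to vary like the others. Among the lists, 2 alternatives were chosen after seeing the data: quantile normalization and leaving out the BALB/c culture with Ro and LPS. For strain, the licensing list had 2 calls, 6 without that culture and 5 after quantile normalization, and the class I list had 1 higher and 0 after quantile normalization. Among all called genes, the share higher was 18.7% for LPS (45.9% after quantile normalization), 76.3% for Ro (53.3%), 75.0% for strain (47.0%) and 27.1% between RA and Ro (49.2%). Where a setting changed a call, the cause was not tested. Nod1 came nearest to background and was under it on 1 array.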
